A study of Arabidopsis thaliana with 4 samples.

Results

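Transcript levels of 5 auxin receptor genes and 5 genes of auxin response factors (ARFs) were examined in the flanks of bending Arabidopsis thaliana stems. The receptors were TIR1, AFB1, AFB2, AFB3 and AFB5, and the ARFs, all of the class that activates transcription, were ARF5, ARF6, ARF7, ARF8 and ARF19. The members were chosen by locus: each of the 10 loci was named by a single probe, among 20219 genes with a probe that names 1 locus. The rule itself used no measured value, but the members were chosen with earlier results of these data known. All plants were of ecotype Col and all stems were gravistimulated, by laying plants with a primary inflorescence stem of 4 to 8 cm on their side in dim light without a direction. The 4 groups were the lower and upper flanks at 30 min and the lower and upper flanks at 10 min, cut by hand from a 3 cm segment below the decapitated tip. At each time 2 arrays set the lower flank against the upper flank, with the lower flank in Cy5 on replicate 1 and in Cy3 on replicate 2. An unstimulated stem was not analysed here, so every value is relative to the other flank or the other time. The plants' ages at harvest and the number of stems pooled are not given in the sources used here.

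Auxin is perceived by F-box proteins of the TIR1/AFB family, the substrate-binding subunits of an SCF ubiquitin ligase. Auxin holds the receptor and an Aux/IAA repressor together, the repressor is ubiquitinated and degraded, and ARFs bound at auxin response elements are then free to activate transcription. In a stem laid on its side, auxin accumulates in the lower flank, which grows more and turns the stem upward. The activity of receptors and ARFs is therefore known to depend on auxin and on Aux/IAA turnover, beside the amount of their own transcripts, which the arrays measured.

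Each member was read by a single 60-base probe, at positions that the array files give without a genome build. The receptor probes lay at chr3:23284471-23284530 (TIR1, AT3G62980), chr4:1405130-1405189 (AFB1, AT4G03190, which RefSeq names GRH1), chr3:9871544-9871603 (AFB2, AT3G26810), chr1:4368890-4368949 (AFB3, AT1G12820) and chr5:20351657-20351716 (AFB5, AT5G49980). The ARF probes lay at chr1:6891071-6891130 (ARF5, AT1G19850, also MP), chr1:10686244-10686303 (ARF6, AT1G30330), chr5:7016487-7016546 (ARF7, AT5G20730, also NPH4), chr5:14651250-14651309 (ARF8, AT5G37020) and chr1:6628398-6628457 (ARF19, AT1G19220). Exon or UTR positions were not assigned, and how far a probe also bound a close relative (AFB2 and AFB3, TIR1 and AFB1, ARF7 and ARF19, ARF6 and ARF8) was not tested. All 10 probes were well above background in all 8 channels and none was saturated, so all 10 genes passed the filter on dim probes. The background-subtracted signal was lowest for ARF7, at 52.3 to 115 intensity units over the 8 channels, and for ARF19, at 89.0 to 203. It spanned 776 to 2321 units for AFB1 and 627 to 1819 for ARF6; brightness depends on the probe, so these ranges do not rank the genes.

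Over the whole array, 18286 genes were tested, and between 86 and 90.9% of probes stood well above background in a channel. Of the markers of stem tissues (epidermis, xylem and fibre, phloem, photosynthetic tissue), all 16 with a probe were well above background in all 8 channels. The floral gene AG was well above background in none, AP3 in 7 and AP1 in 8 channels. Both arrays of each time are labelled as biological replicates, while the labelling protocol has every cRNA labelled once per dye. It is not settled whether the dye-swapped array was made from other plants, and p-values may cover no more than technical spread.

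At 30 min none of the 10 genes differed between the flanks by the limma test at an adjusted p under 0.05. This threshold was passed by 0.528% of 18183 genes. An unadjusted p under 0.05 was reached by 2 members, the receptor gene AFB1 and ARF8, against 11.8% of all genes. The flank ratio is given as the log2 of lower over upper flank, and ± is its standard error from the fit (n = 2 arrays). In this fit even the bounds of the members' 95% intervals stayed within 1.22-fold. With each array centred on its median in place of the loess curve, the standard errors were larger. AFB1 then had 0.21 ± 0.16 and ARF8 had 0.23 ± 0.14. The arrays of a time carry swapped dyes, and with the dye orientation as a replicate block, which removes each gene's dye effect from the error, 5 members passed: AFB1, ARF8 and ARF19 were higher in the lower flank, and AFB5 and ARF7 were lower. The blocked test called 34.4% of all genes at 30 min, 17.8% as higher and 16.6% as lower. The block was the only alternative under which a member passed for a flank ratio. Over all alternatives the adjusted p at 30 min ranged from 0.00027 to 1 for ARF8 and from 0.00061 to 1 for AFB1.

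AFB1, a receptor that is known to act in rapid auxin responses of roots, had log2 ratios of 0.16 and 0.16 on the 2 arrays at 30 min. Both arrays thus placed the lower flank above the upper one by nearly the same amount. The mean was 0.16 ± 0.04, or 1.12-fold, with an interval of 0.07 to 0.25, an adjusted p of 0.188 and, with the block, 0.00061.

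The remaining receptors had smaller flank ratios at 30 min. TIR1, the founding member of the family, had -0.11 on replicate 1 and 0.06 on replicate 2, so its arrays did not share a direction (mean -0.03 ± 0.06, interval -0.19 to 0.13). AFB5, of the receptor branch known for its response to the synthetic auxin picloram, was lower in the lower flank on both arrays, at -0.09 and -0.02. Its mean of -0.06 ± 0.04 had an adjusted p of 0.741 and, with the block, 0.0335. AFB2 and AFB3, close relatives that are both targets of the microRNA miR393, had means of -0.03 ± 0.05 and -0.02 ± 0.03. Both arrays were below 0 for each of them, but for AFB2 replicate 2 was at -0.0023.

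Among the ARFs, ARF8 had the largest flank ratio of all 10 members at 30 min. ARF8, a target of miR167 that acts with ARF6 in stem elongation and flower maturation, had log2 ratios of 0.22 and 0.16, both above 0. The mean was 0.19 ± 0.04, or 1.14-fold, with an interval of 0.10 to 0.29, an adjusted p of 0.135 and, with the block, 0.00027. ARF6, the other target of miR167, had 0.03 and 0.06, with a mean of 0.05 ± 0.04 (adjusted p = 0.769, with the block 0.0754).

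ARF7 and ARF19 are the ARFs best known from tropic bending, in which they overlap in function. Their flank ratios at 30 min lay on opposite sides of 0. ARF19 had 0.05 and 0.14, above 0 on both arrays (mean 0.10 ± 0.04, interval -0.01 to 0.20, adjusted p = 0.476, with the block 0.00564). ARF7 had -0.10 and -0.02, below 0 on both (mean -0.06 ± 0.04, adjusted p = 0.703, with the block 0.0408). ARF5, which patterns vascular tissue and flower primordia, had 0.05 and 0.01, a mean of 0.03 ± 0.04.

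**Figure D1:**
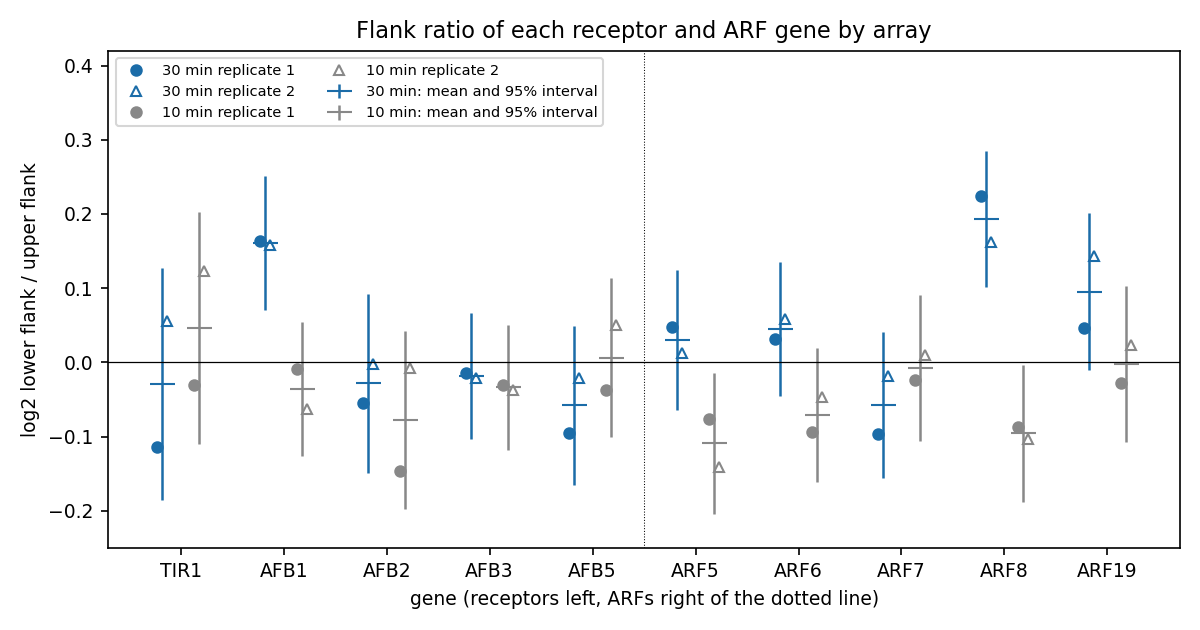
Log2 ratio of lower over upper flank (y axis) for each of the 10 genes (x axis), with both arrays of 30 min in blue and both of 10 min in grey. Circles are replicate 1, triangles replicate 2, and horizontal ticks with vertical bars are the mean and 95% interval of the limma fit; AFB1 and ARF8 at 30 min are the only intervals wholly above 0, and ARF5 and ARF8 at 10 min the only ones wholly below it.

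At 10 min the limma test called no gene at all (0% of 18234), and hence no member. An unadjusted p under 0.05 was reached by 2 members, ARF5 and ARF8, both lower in the lower flank, against 6.11% of all genes. In the reported fit no member's 95% interval reached beyond 1.15-fold. With the block, 4 members passed, AFB2, ARF5, ARF6 and ARF8, all lower in the lower flank, where the blocked test called 23.2% of all genes and 11.4% as lower.

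Of the receptors at 10 min, AFB2 had ratios of -0.15 and -0.0082, both below 0 but far apart (mean -0.08 ± 0.05, adjusted p = 0.982, with the block 0.0318). AFB1 had -0.0091 and -0.06, and AFB3 had -0.03 and -0.04. TIR1 had -0.03 on replicate 1 and 0.12 on replicate 2, and AFB5 had -0.04 and 0.05, so the arrays of these receptors lay on both sides of 0. The ratio of TIR1 differed between the replicate numbers in the same direction at both times. The deviation of replicate 1, with the lower flank in Cy5, from the mean was -0.08 at both times. Dye orientation and replicate number coincide, so they cannot be told apart here.

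Of the ARFs at 10 min, ARF5 had ratios of -0.08 and -0.14, the largest mean difference of a member at that time (mean -0.11 ± 0.04, interval -0.20 to -0.01, adjusted p = 0.748, with the block 0.00556). ARF8 had -0.09 and -0.10, a mean of -0.10 ± 0.04 (interval -0.19 to -0.0034, adjusted p = 0.797, with the block 0.0101). ARF6 had -0.09 and -0.05, a mean of -0.07 ± 0.04 (adjusted p = 0.917, with the block 0.0242). These 3 genes were thus slightly lower in the lower flank on every array at 10 min. ARF7 and ARF19 had means of -0.0073 and -0.0022, each with 1 array on either side of 0.

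Counted by direction alone, 5 members were above 0 on both arrays at 30 min (AFB1, ARF5, ARF6, ARF8 and ARF19), as were 25.2% of the 17754 genes with all arrays, and 4 were below 0 on both (AFB2, AFB3, AFB5 and ARF7), as were 24.3%. At 10 min no member was above 0 on both arrays, against 22.5% of genes, and 6 were below 0 on both, against 20.5%. The median flank ratio of the members was 0.0061 at 30 min and -0.04 at 10 min, and that of all genes was -0.00064 at 30 min and 0.0028 at 10 min.

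The change of the flank ratio between the times was tested as the ratio at 30 min minus that at 10 min. None of the 10 members was called, against 0.127% of 18167 genes, and 3 had an unadjusted p under 0.05 (AFB1, ARF5 and ARF8), against 12.7% of genes. The 4 genes AFB1, ARF5, ARF6 and ARF8 were above 0 on both arrays at 30 min and below 0 on both at 10 min, a pattern of 9.59% of genes, and no member had the opposite pattern, which 9.63% of genes had. ARF8 had the largest difference between the times among the members, 0.29 ± 0.05 (interval 0.16 to 0.42, adjusted p = 0.152). The difference was 0.20 ± 0.05 for AFB1 (adjusted p = 0.241) and 0.14 ± 0.05 for ARF5 (adjusted p = 0.376). With the block 6 members passed, where the blocked test called 37.9% of all genes, 18.9% upward and 19% downward. ARF8 (adjusted p with the block 0.000234), AFB1 (0.0011), ARF5 (0.00397), ARF6 (0.00812) and ARF19 (0.0195) were relatively higher in the lower flank at 30 min than at 10 min, and TIR1 (0.0408) was relatively lower.

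Of the tissue markers, PP2-A1 alone was called between the flanks by the unblocked test, at 30 min. None was called for the change of the ratio between the times. For levels, array and time differences cannot be told apart. In the lower flank CER5 (-0.44), PP2-A1 (-0.44) and LHCA4 (-0.54) were called lower at 30 min than at 10 min. The test called 9.99% of all genes there, and no marker in the upper flank. At 30 min 13 of the 16 stem markers were below 0 on both arrays, as were 24.3% of all genes, and none was above it on both, against 25.2%. Their median ratio was -0.16. With the block 3 of 5 epidermis, 3 of 3 xylem and fibre, 4 of 4 phloem and 3 of 4 photosynthetic markers were lower at 30 min. None was higher, where the blocked test called 16.6% of all genes lower and 17.8% higher. At 10 min 8 were above 0 on both arrays, against 22.5% of all genes, and 2 below, against 20.5%, with a median of 0.02. With the block 4 phloem and 2 photosynthetic markers were higher at 10 min, where 11.8% of all genes were called higher. There 1 epidermis marker was lower, where 11.4% of all genes were called lower. For the change of the ratio, 3 epidermis, 2 xylem and fibre, 4 phloem and 3 photosynthetic markers were lower with the block, where 19% of all genes were called lower. The summed normalized signal of 5 epidermis markers was 9437 and 10987 in the lower flanks at 30 min, against 11129 and 12408 in the upper flanks. That of 4 phloem markers was 2838 and 3270 in the lower flanks, against 3300 and 3678 in the upper ones, and PP2-A1, a phloem lectin, was called lower in the lower flank (-0.36). For 3 xylem and fibre markers it was 1447 and 1553 in the lower flanks, against 1608 and 1631 in the upper ones, so that the upper flank had the larger sum on both arrays for these 3 tissues. The flank ratios of the xylem and fibre markers at 30 min ran from -0.16 for CESA7 to -0.09 for CESA4. For 4 photosynthetic genes the sum on replicate 1 was 99566 in the lower flank, against 137281 in the upper flank. On replicate 2 it was 120098 in the lower flank, against 109521 in the upper flank. Their mean log2 signal, however, was lower in the lower flank on both arrays, at 14.34 and 14.39, against 14.64 and 14.44 in the upper flank. LHCB5, LHCA4 and LHCA2 had mean ratios of -0.19, -0.18 and -0.17, and RBCS1A, with a far wider spread, had -0.16 ± 0.45. The part of the markers in the members' ratios was not tested. In whole flanks, fewer cells of a type and less RNA per cell cannot be told apart.

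The levels of each flank were then compared between the times, as log2 normalized signal of 1 channel after scaling between arrays. No member was called in either flank, while 9.99% of 18167 genes were called in the lower flank and 3.81% in the upper one. An unadjusted p under 0.05 was reached by 3 members in the lower flank (TIR1, ARF5 and ARF8), against 27.7% of genes, and by 2 in the upper flank (TIR1 and ARF6), against 20.5%. In the lower flank no interval reached beyond 1.48-fold, and in the upper flank none beyond 1.47-fold. The times lie on different arrays, so differences between arrays and between times cannot be told apart here. With the replicate block, and with all channels fitted together by lmscFit, no member was called in either flank. The blocked test called 12.5% of all genes in the lower flank and 8.54% in the upper one. It gave all 10 members the same standard error, 0.136 in the lower flank and 0.138 in the upper one. It thus did not weigh a member's own spread.

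TIR1 had lower levels at 30 min in both flanks. In the lower flank its levels were 8.48 and 8.56 at 30 min, against 8.83 and 8.89 at 10 min. In the upper flank they were 8.59 and 8.50 at 30 min, against 8.86 and 8.77 at 10 min, so neither flank's times overlapped. The change was -0.34 ± 0.10 in the lower flank (interval -0.56 to -0.12, adjusted p = 0.0549) and -0.27 ± 0.10 in the upper flank (adjusted p = 0.178). Both arrays of 30 min lay below both of 10 min in each flank for TIR1 and ARF6, a pattern that 16.8% of genes shared.

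ARF6 averaged 9.89 ± 0.11 in the lower flank at 30 min, against 10.09 ± 0.03 at 10 min (SD, n = 2 each). In the upper flank it averaged 9.84 ± 0.13 at 30 min, against 10.16 ± 0.01 at 10 min. Its change was -0.20 ± 0.10 in the lower flank (adjusted p = 0.235) and -0.32 ± 0.10 in the upper flank (adjusted p = 0.141).

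ARF8 was higher at 30 min in the lower flank, where its levels were 9.79 and 9.61 at 30 min, against 9.41 and 9.35 at 10 min. In the upper flank they were 9.57 and 9.45 at 30 min, against 9.50 and 9.45 at 10 min, and the times overlapped. The change was 0.32 ± 0.10 in the lower flank (interval 0.09 to 0.56, adjusted p = 0.0784) and 0.04 ± 0.10 in the upper flank (interval -0.19 to 0.26, adjusted p = 0.863). ARF5 averaged 8.44 ± 0.04 in the lower flank at 30 min, against 8.19 ± 0.02 at 10 min, a change of 0.24 ± 0.10 (adjusted p = 0.137), and its times did not overlap in either flank. The change in its upper flank was 0.11 ± 0.09 (adjusted p = 0.553).

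AFB1 had the widest spread between the arrays of a time. Its lower-flank levels at 30 min were 10.82 and 10.35, and its upper-flank levels were 10.66 and 10.19, so the 2 arrays of 30 min were about as far apart in both flanks while their flank ratios coincided. At 10 min the lower flank had 10.40 ± 0.01 and the upper flank 10.43 ± 0.05 (SD, n = 2 each). The change between the times was 0.19 ± 0.14 in the lower flank (interval -0.13 to 0.51) and -0.0081 ± 0.15 in the upper flank.

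Neither flank had an interval that left out 0 for the remaining members. AFB5 and ARF7 had lower levels at 30 min without overlap in the lower flank, at differences of -0.14 ± 0.10 and -0.08 ± 0.10, and overlapped in the upper flank. AFB2, AFB3 and ARF19 overlapped in both flanks, with changes between -0.09 and 0.03. Over all members, in the lower flank the arrays of 30 min lay above those of 10 min for 2 genes (35.6% of all genes) and below them for 4 (23.7%). In the upper flank they lay above for 1 gene (32.2%) and below for 2 (22.1%).

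**Figure D2:**
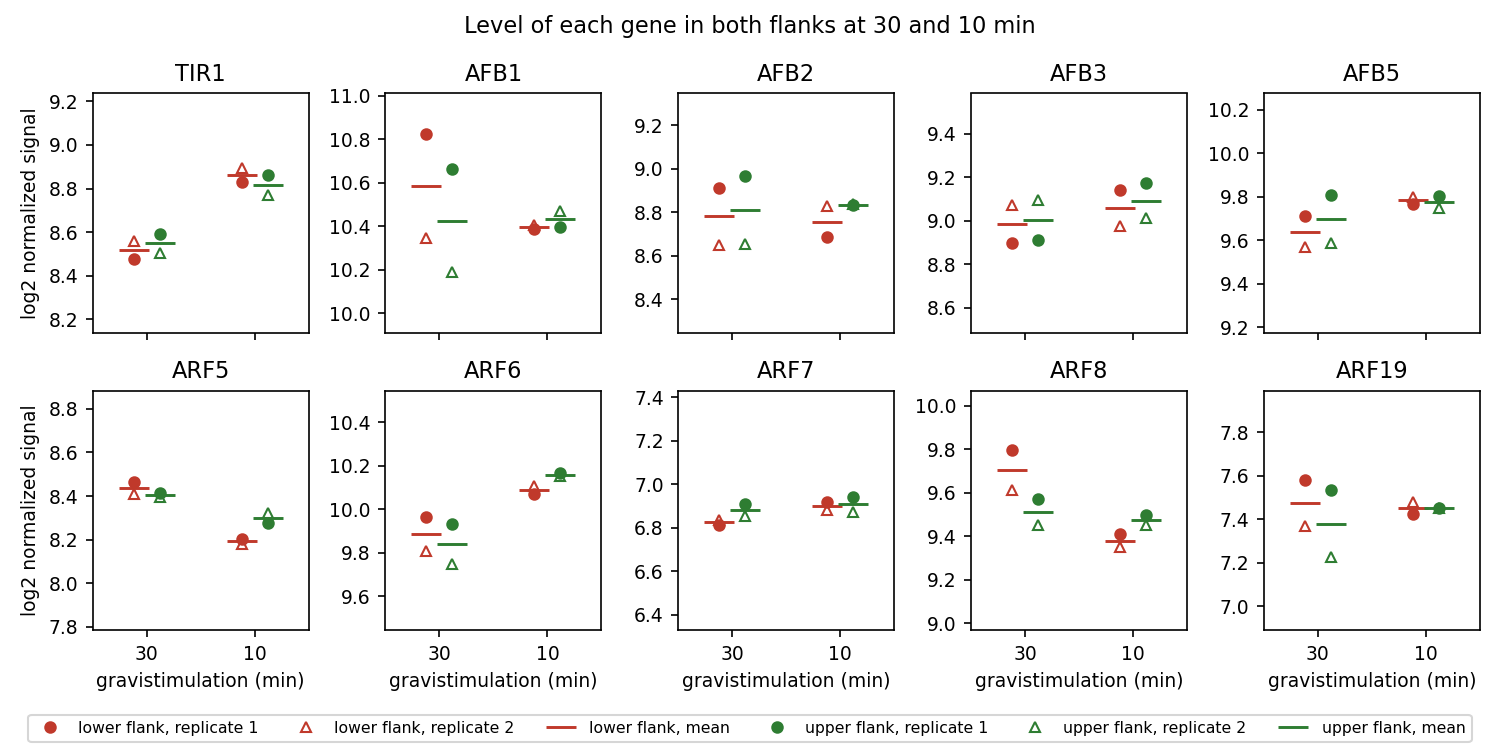
Log2 normalized signal (y axis, 1 panel per gene, all panels of equal height in log2 units) in the lower flank (red) and upper flank (green) at 30 and 10 min (x axis). Circles are replicate 1, triangles replicate 2 and bars the means; TIR1 and ARF6 lie lower at 30 min in both flanks, ARF8 lies higher at 30 min in the lower flank, and the arrays of AFB1 at 30 min lie far apart.

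**Figure D3:**
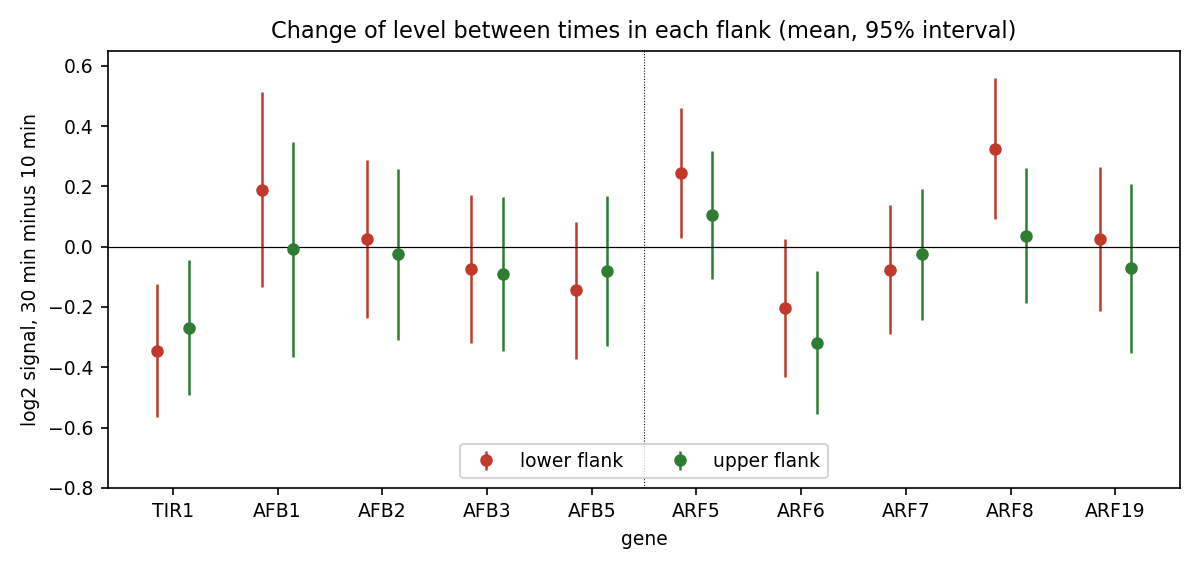
Change of the log2 level at 30 min minus that at 10 min (y axis) in the lower flank (red) and the upper flank (green) for each gene (x axis), as mean and 95% interval of the limma fits. The intervals of TIR1 in both flanks and ARF6 in the upper flank lie below 0, those of ARF5 and ARF8 in the lower flank above 0, and all others cross it.

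The genes most like ARF8 and TIR1 were taken over the 8 channel levels, among genes that vary at least as much. For ARF8 they were AT3G46490 (Pearson r 0.980), MSI2 (0.978) and SEP4 (0.972), of 7106 candidates. For TIR1 they were GGT1 (0.997), AT2G03750 (0.990) and AT1G04280 (0.990), of 4804 candidates. The 8 levels come from 4 arrays, whose channels share a spot, and the correlations are descriptive.

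The genes that act with the receptors and ARFs were taken from lists of the pathway. Among the Aux/IAA repressors, which the receptors mark for degradation and many of which are themselves induced by auxin, 24 of 29 listed genes were tested and 6 were higher in the lower flank at 30 min, with 0 lower. These were IAA5 (log2 ratio 2.28), IAA1 (1.31), IAA3 (1.06), IAA2 (0.92), IAA6 (0.89) and IAA4 (0.64). The test called 0.528% of all genes at 30 min. With the block 13 of the 24 were higher and 3 lower, where 17.8% of all genes were called higher and 16.6% lower. At 10 min none of the 24 was called, with 4 at an unadjusted p under 0.05, against 6.11% of all genes. With the block 6 were higher and 2 lower at 10 min, where the blocked test called 11.8% of all genes as higher and 11.4% as lower. With each array centred on its median in place of the loess curve, no gene of the array was called at 30 min, these 6 included.

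The levels of the Aux/IAA genes were also compared between the times within each flank, where array and time differences cannot be told apart. In the lower flank 3 were called higher at 30 min than at 10 min, IAA5 (2.03), IAA6 (0.97) and IAA19 (0.79). There 1 was lower, IAA7 (-0.47), and 9.99% of all genes were called. In the upper flank 5 were lower at 30 min, IAA1 (-1.28), IAA3 (-1.24), IAA2 (-1.12), IAA4 (-0.79) and IAA26 (-0.58), and 0 were higher. The test called 3.81% of all genes in that flank. The flank ratio itself was called as higher at 30 min than at 10 min for IAA5, IAA3 and IAA6, and with the block for 15 of the 24 genes, with 4 lower, where 18.9% of all genes were called higher and 19% lower.

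Of the 10 other ARFs tested, 1 was called at 30 min: ARF10, a repressing ARF and target of miR160, was higher in the lower flank by 0.45 ± 0.04 (adjusted p = 0.0214). The unblocked test called 0.528% of all genes at that time. With the block 3 of these ARFs were higher and 0 lower, where 17.8% of all genes were called higher and 16.6% lower. The median ratio of these ARFs at 30 min was -0.0083.

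The SCF ligase that carries the receptors and its regulators had 10 of 11 listed genes tested, and limma called 0 at 30 min, with 0 at an unadjusted p under 0.05. Their ratios ran from -0.05 for RCE1, an enzyme of the RUB conjugation that activates the ligase, to 0.08 for ECR1, a subunit of the RUB-activating enzyme, and 2 were higher with the block. Neither of the 2 related F-box genes was called, AFB4 at -0.03 and the jasmonate receptor gene COI1 at 0.07, though COI1 was higher with the block. The 5 TOPLESS corepressor genes, whose proteins silence ARF targets through Aux/IAA proteins, ran from 0.02 for TPR1 to 0.11 for TPR2. None was called, 1 had an unadjusted p under 0.05, and 2 were higher with the block. Over all genes at 30 min, 11.8% had an unadjusted p under 0.05 and 17.8% were higher with the block. None of these 3 lists, and none of the other ARFs, had a call in the unblocked test at 10 min or between the times in either flank. With the block at 10 min, 2 genes of the SCF list were higher and 2 lower, and 1 of the other ARFs was lower. The precursor genes of miR393 and miR167 were not analysed here.

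**Figure D4:**
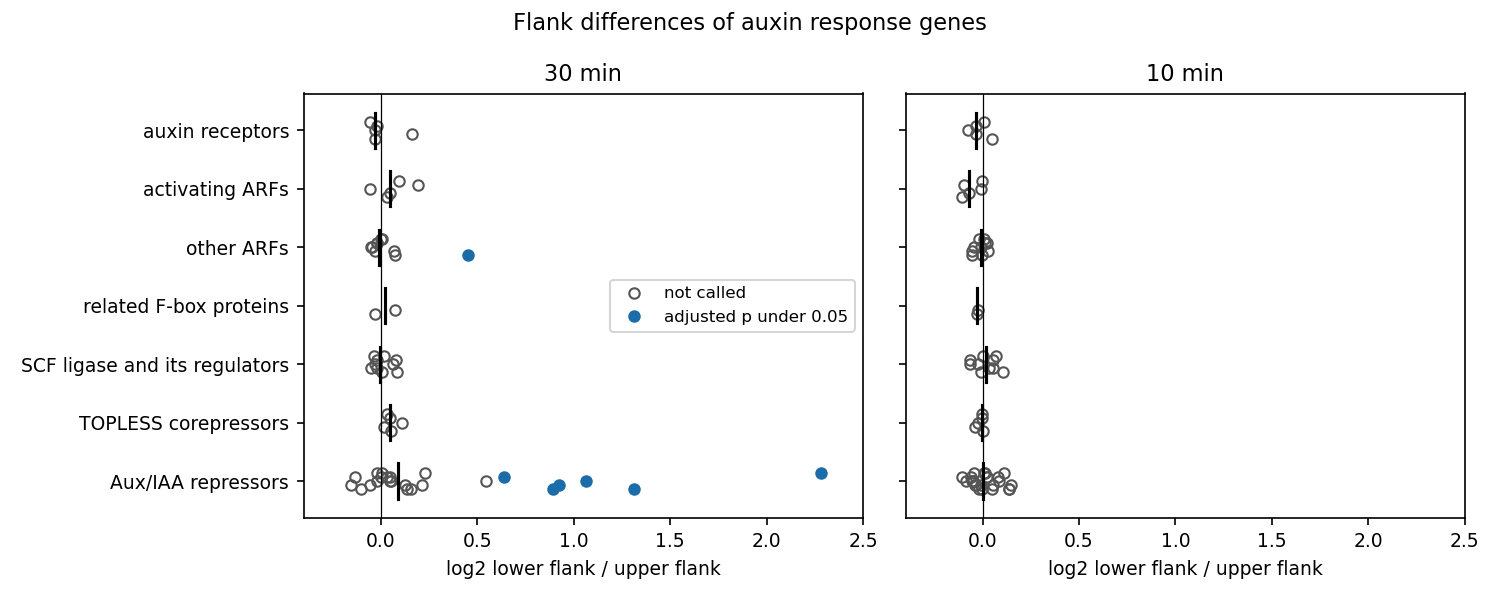
Mean log2 ratio of lower over upper flank (x axis) at 30 min (left) and 10 min (right) for every tested gene of the receptors, the activating ARFs and 5 further lists (rows). Filled blue points passed the limma test at an adjusted p under 0.05, open points did not, and black ticks are list medians; the called genes are 6 Aux/IAA genes and ARF10 at 30 min.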

How the data were processed

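Total RNA of stem flanks was amplified, labelled with Cy3 or Cy5 and hybridized to 4 two-colour Agilent arrays, 2 per time. The members and all gene lists were chosen with earlier results of these data known. Feature Extraction 8.1.1.1 read the images, per the file headers. Of the deposited intensity columns, the raw mean of each spot and its local background median were used. A further deposited intensity, the processed signal, was background-subtracted and dye-normalized, and the deposited log10 ratio is of processed Cy5 over Cy3, per the file headers. The authors' series table holds log10 ratios of lower over upper flank, within 0.005 of the LogRatio column on replicate 1 and of the processed signals on replicate 2. Its column medians are 0, -0.00128, 0 and -0.00264. The deposited flags (other values of 0 or 1) mark dim, saturated and outlier spots. The genome build and depth in molecules are not given in the sources used here, and the number of arrays limits the precision.

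Background was corrected with normexp (offset 50) and ratios were normalized by loess within arrays in limma 3.58.1 under R 4.3.3. Control spots (1075 of 22575) had weight 0 and were dropped, as were outlier spots, none of them a member's. Of 21500 gene probes, 20269 named 1 locus, 168 several and 1063 none. A gene took its brightest one-locus probe and was tested if well above background on both arrays of a flank and time. Symbols came from a RefSeq table (TAIR10.1), in which all 10 members and 20187 one-locus probes were found. Log2 ratios of all 4 arrays were fitted with a mean per time (lmFit, eBayes). For levels, channels were scaled by Aquantile and each flank's 4 channels were fitted with a mean per time. The Benjamini-Hochberg adjustment ran over every tested gene. The fits were tested on simulated data with planted differences larger than any member's, so recovery at the members' sizes was not tested.

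Replicate numbers pair arrays of the same dye orientation, as the titles and the labels' dyes state. Same-numbered arrays deviated together in flank ratios (r = 0.867 over genes) and not in levels (-0.154 for the lower flank, -0.116 for the upper flank). The SD over genes of the dye contrast was 0.0603, against 0.0161 for the remaining contrast among the 4 arrays. The unblocked error of a flank ratio holds each gene's dye effect, which cancels in the mean of a time. A slide block could not be fitted, since each array lay on its own slide.

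All 10 members were named. Of every other list, the genes called in a comparison were named (at most 6, by size), or, with no call, those with the highest and lowest flank ratio at 30 min. Likeness was taken for the member with the largest flank ratio at 30 min and that with the largest mean change between the times. No sequence is shown, since probe and gene sequences were not used here. Alternatives covered background, signal, normalization, filter, probe choice, block, samples fitted and each array left out.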

Additional observations from a re-analysis of the deposited data

Results flagged for a closer look

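For 4 genes both arrays lay above 0 at 30 min and both below 0 at 10 min, so their flank ratio (log2 of lower over upper flank) took opposite directions at the 2 times. The ratio at 30 min minus that at 10 min was 0.289 for ARF8, 0.197 for AFB1, 0.139 for ARF5 and 0.116 for ARF6. None of these passed the limma test of the difference itself (adjusted p of 0.152, 0.241, 0.376 and 0.446 in the same order), and all 4 passed it with the replicate block (0.000234, 0.0011, 0.00397 and 0.00812), which called 37.9% of all genes. The 4 genes were picked for lying on opposite sides of 0 at the 2 times, so these p-values are not independent of the choice. The same pattern of directions was found for 9.59% of all genes and its opposite for 9.63%.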

How the results depend on the processing

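Under every alternative not named in this paragraph 0 of the 10 genes were called, as in the fits reported. With the replicate block 4 were called for the flank ratio at 10 min, 5 at 30 min and 6 for the difference between the times, and none for the levels. Leaving out 1 array gave 0 to 3 genes called in the lower flank between the times and 0 to 1 in the upper flank, and 0 for the flank ratios. Without replicate 2 of 30 min the change in the lower flank was -0.39 for TIR1, 0.43 for AFB1 and 0.41 for ARF8. Without replicate 1 of 30 min the change of AFB1 there was -0.05, so its direction rested on 1 array. Without replicate 1 of 30 min the change of ARF6 in the upper flank was -0.41. In these fits 1 array stood for 30 min and was taken to vary like those of 10 min. Pairing replicate 1 of one time with replicate 2 of the other, chosen after seeing the data because same-numbered levels deviated in opposite directions, called 2 members and 3953 genes in the lower flank, and 0 members and 2085 genes in the upper flank.

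Several of the 12 alternatives could not move a member's mean flank ratio at 30 min. These were the block, each time alone, the filter, the probe choice and leaving out an array of the other time. The others were the offset, the processed signals, the series table, which nearly repeats them, median centring and each array of 30 min alone. Over those the ratio stayed above 0 for AFB1 (0.16 to 0.21) and ARF8 (0.16 to 0.23). The ratio ranged from -0.05 to 0.0047 for AFB2 and from -0.02 to 0.0047 for AFB3.

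Counts over all genes moved more. At 10 min the 0 genes called became 86 with each time fitted alone, 44 to 104 without 1 array and 4224 with the block. At 30 min the 96 called genes became 47 at offset 16, 60 with the processed signals, 61 with the authors' series table, 0 with median centring, 613 with each time alone, 214 to 613 without 1 array and 6259 with the block. For the difference, 23 became 2 with the processed signals, 2 with the series table, 0 with median centring, 237 to 430 without 1 array and 6879 with the block. In the lower flank 1815 became 942 with the processed signals and 575 to 4055 without 1 array. In the upper flank 692 became 1552 with the block, 1071 with lmscFit and 315 to 4955 without 1 array. Why the counts moved was not tested.

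With 2 arrays per time the unblocked test left 95% intervals with bounds up to 1.22-fold at 30 min, and no member was called at these sizes. With median centring the standard errors at 30 min were 0.16 for AFB1 and 0.14 for ARF8, against 0.04 for each in the reported fit. ARF7 and ARF19 were the dimmest members.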
